A study of Mus musculus with 6 samples.

Results

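The Serpina3 protease inhibitor cluster of the mouse was measured here by 14 of the 55681 non-control probes of a 1-colour expression array. Its members are the probes whose gene name is Serpina3 followed by a single letter, which gives 11 genes (Serpina3a, b, c, f, g, h, i, j, k, m and n), with 2 probes each for Serpina3a, Serpina3f and Serpina3i. The family was selected on measured values, because its large genotype difference in these same arrays was already known. The values of its members are therefore given as a description, with no p-value for any of them. Standard errors and 95% intervals come from the limma fit, which pools both genotypes and draws each probe's variance towards that of all probes. Counts of members past the threshold of the fit across all probes are printed only beside the share of all probes. All 14 probes lie on chromosome 12 (mm9, the build of the array files) within 297.2 kb.

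Serpins are protease inhibitors that offer a reactive centre loop as bait. The attacking protease cuts the loop and is trapped with the inhibitor in an inactive complex. The human genome has a single SERPINA3 gene, which encodes the plasma protein alpha-1-antichymotrypsin, whereas the mouse carries a cluster of duplicated genes with diverged reactive loops. Serpina3n encodes a secreted inhibitor that blocks granzyme B and neutrophil elastase and rises in the acute phase response and in reactive astrocytes. Serpina3g, also called Spi2A, acts inside cells on lysosomal cathepsins, and Serpina3k, the contrapsin of plasma, is made by the liver.

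The arrays carry total RNA from aortic arteries of C57BL/6 fetuses at E18.5. Every dam was Nod1 -/- and received 500 ug FK565, a synthetic agonist of the peptidoglycan sensor NOD1, under the skin 6 h before the vessels were taken. The fetuses were Nod1 +/- on 3 arrays and Nod1 -/- on the other 3, so the comparison asks how fetal arteries with and without a working Nod1 allele differ after the same maternal injection. No untreated fetus is among the arrays, and the labels name no cell type to which the loss of Nod1 was limited. The labels do not say whether an array holds RNA of a single fetus, so p-values measure only the spread between these samples, and the number of arrays limits the precision.

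Between 48.6% and 58.4% of the probes were well above background on each array, and no spot was saturated. The probe for Nod1 differed by 0.13 on the log2 scale (SE 0.19, 3 arrays per genotype, limma adjusted p = 0.659). Which part of Nod1 was deleted is not given in the sources used here, so that probe checks no label. All 7 smooth muscle, 8 endothelial and 7 fibroblast markers read well above background on every array, and 0, 3 and 3 of them were lower in Nod1 +/- (0 smooth muscle markers also at an unadjusted p under 0.05). Of the neutrophil markers, 6 of 10 were higher in Nod1 +/-. Ly6g (0.89, limma adjusted p = 0.1075), Camp (0.92, limma adjusted p = 0.1775), Mpo (0.29, limma adjusted p = 0.712) and Elane (0.22, limma adjusted p = 0.512) did not pass. The summed signal of the 10 on the log2 scale, relative to each array's 75th percentile, was 6.97 to 7.67 in Nod1 +/- and 4.11 to 4.52 in Nod1 -/-. Signals were added before the log, so this sum follows mainly the brightest marker, S100a9 (mean level 6.85 in Nod1 +/- and 3.68 in Nod1 -/-). The summed Schwann and glial markers were 1.95 to 2.38 in Nod1 +/- and 3.11 to 3.63 in Nod1 -/-. Among them, S100b (-1.94, limma adjusted p = 0.00134) and Fabp7 (-2.26, limma adjusted p = 0.0129) were lower in Nod1 +/-, Gfap, with no Nod1 -/- reading well above background, was higher, and Erbb3 was well above background on no array. Of 8 macrophage markers, Cx3cr1 (-2.05, limma adjusted p = 0.00517) and Csf1r (-0.96, limma adjusted p = 0.0325) were lower, with summed levels of 6.12 to 6.37 and 6.17 to 7.08 that overlapped. Hepatocyte markers, of which 8 of 10 were well above background on all 6 arrays, moved with single arrays: their sum was lowest in Nod1 -/- replicate 1 (4.39) and highest in Nod1 -/- replicate 2 (7.58), and 0 of the 9 tested passed the threshold in limma (0 also at an unadjusted p under 0.05). The number of cells of a type and the RNA per cell cannot be told apart in such bulk samples.

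Since the genes are recent duplicates, the 60-base probes were first compared with each other. Transcripts of the paralogs were not searched, so these comparisons do not show which transcripts a probe binds. The closest pair were the Serpina3h probe (chr12:105491733-105491792, mm9, plus strand) and a Serpina3i probe (chr12:105506705-105506764, mm9, plus strand). They are shown whole because no other pair shares so long a run. The capitals mark the 22 bases that both hold.
Serpina3h probe: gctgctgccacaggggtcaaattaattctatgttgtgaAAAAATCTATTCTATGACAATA
Serpina3i probe: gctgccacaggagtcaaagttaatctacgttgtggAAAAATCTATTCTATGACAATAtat

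Laid over each other without gaps, they match at 51 of 57 bases (89.5%), and with gaps allowed at 53 of 58 aligned positions (91.4%). No other probe on the array shares a run of 20 or more bases with a Serpina3 probe. The next most alike are a Serpina3a probe, the Serpina3b probe and the probe that the array names Serpina3f but whose accessions belong to both Serpina3f and Serpina3h. A window of 30 bases from each is shown, with the 11 bases common to all in capitals, because these probes stand for genes with different genotype differences.
Serpina3a window: CATCACCCAAAatgaataggtaggagcaaa
Serpina3b window: CATCACCCAAAatgaaagggaggagcaaat
Serpina3f/Serpina3h window: CATCACCCAAAttgaaagggcaggagctaa

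The probe shared by Serpina3f and Serpina3h lies 823 bases from the Serpina3h probe and 33.6 kb from the other Serpina3f probe. It is called the Serpina3f/h probe here. The Serpina3g and Serpina3n probes, which stand for the best-studied members among the higher genes, had no close partner among the Serpina3 probes. The longest run that either shares with another Serpina3 probe is 7 bases. The central 30 bases of both are given so that they can be looked up. The whole probes lie at chr12:105480045-105480104 and chr12:105651918-105651977 (mm9, plus strand).
Serpina3g probe, centre: aactacgtaggactggtggacacctctgca
Serpina3n probe, centre: tagatagtgactaactgtgttataacctca

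Of the 14 probes, 11 had at least 3 arrays with signal well above background and entered the fit across all 30166 such probes. In that fit, 8 of the 11, from 6 genes, passed the threshold (limma, Benjamini-Hochberg adjusted p under 0.05), all of them higher in Nod1 +/-. Of all probes in the fit, 16.0% passed in either direction and 6.82% passed with higher signal in Nod1 +/-. The same 8 probes had every Nod1 +/- array above every Nod1 -/- array, as did 16.2% of all probes in the fit. Because the family was picked from this contrast, nothing is read from these counts. The median difference over the 11 was 3.05 on the log2 scale, against -0.09 over all probes in the fit.

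Serpina3n, the secreted inhibitor, had the largest difference of the family. Its scanner signals (background-subtracted brightness before scaling) were 2161, 2704 and 1502 on the Nod1 +/- arrays and 48.5, 93.9 and 32.6 on the Nod1 -/- arrays. Every Nod1 +/- array was thus far above every Nod1 -/- array. Relative to each array's 75th percentile, the log2 level was 2.34 ± 0.31 (SD, n = 3) in Nod1 +/- and -2.97 ± 0.72 (SD, n = 3) in Nod1 -/-. The difference of 5.31 (SE 0.37, 95% confidence interval 4.41 to 6.21) is 39.7-fold and ranked 9 among the 30166 probes.

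Serpina3g, the inhibitor that acts inside cells, gave signals of 34630, 35950 and 29190 in Nod1 +/- and of 1528, 1678 and 1076 in Nod1 -/-. The genotypes were well separated, and the gene was well above background on all 3 Nod1 -/- arrays. Its difference was 4.59 (SE 0.17, interval 4.17 to 5.01) or 24.1-fold, with a spread in Nod1 +/- of only 0.05 (SD, n = 3) around a log2 level of 6.35. In Nod1 -/- the level was 1.76 ± 0.32 (SD, n = 3).

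Serpina3f was measured by its own probe at 662, 747 and 364 in Nod1 +/- and at 20.5, 13.9 and 11.5 in Nod1 -/-. On the Nod1 -/- side only 1 of the 3 arrays was well above background, so the 38.8-fold difference (5.28 on the log2 scale, SE 0.31) starts from a level near the limit of measurement. The Serpina3f/h probe read 287, 304 and 277 in Nod1 +/- and 33.6, 47.0 and 28.3 in Nod1 -/-. There the difference was 3.05 (SE 0.17, interval 2.64 to 3.47), 8.30-fold. Both probes named Serpina3f were higher in Nod1 +/-, by different measured amounts, and the difference between them was not tested.

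Serpina3h, which RefSeq lists as a non-coding transcript, read 211, 243 and 218 in Nod1 +/- and 38.8, 36.8 and 32.2 in Nod1 -/-. Its difference of 2.67 (SE 0.13, interval 2.36 to 2.98) or 6.36-fold lay close to that of the Serpina3f/h probe beside it. The partner probe of Serpina3i, which shares the 22 bases shown above, read 194.5, 302 and 175 in Nod1 +/- and 9.17, 8.45 and 6.76 in Nod1 -/-, where none of its readings was well above background. Serpina3i was by that probe at least 12.01-fold higher in Nod1 +/-, a bound computed against the lowest signal well above background on each Nod1 -/- array. The second Serpina3i probe, whose longest run shared with another Serpina3 probe is 7 bases, read 309, 455 and 211 against 34.8, 24.4 and 15.9, with 2 of 3 Nod1 -/- arrays well above background. It gave 3.73 (SE 0.36), 13.3-fold. Binding of a probe to a paralog's transcript was not tested beyond these matches between probes.

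Serpina3c, known as a kallikrein-binding inhibitor, had the smallest difference among the 8. Its signals were 337, 390.5 and 192 in Nod1 +/- and 93.4, 119 and 60.01 in Nod1 -/-. The genotypes did not overlap, and the difference was 1.78 (SE 0.31, interval 1.03 to 2.52) or 3.42-fold. It left the set past the threshold when Nod1 +/- replicate 1 or replicate 2 was omitted. Then 7 of the 11 passed, beside 7.87% and 7.9% of all probes in either direction. Serpina3c was also lost when dim probes were kept, with 7 of 14 past the threshold beside 2.4% of all probes. The other 7 stayed past the threshold in these 3 alternatives.

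**Figure D1:**
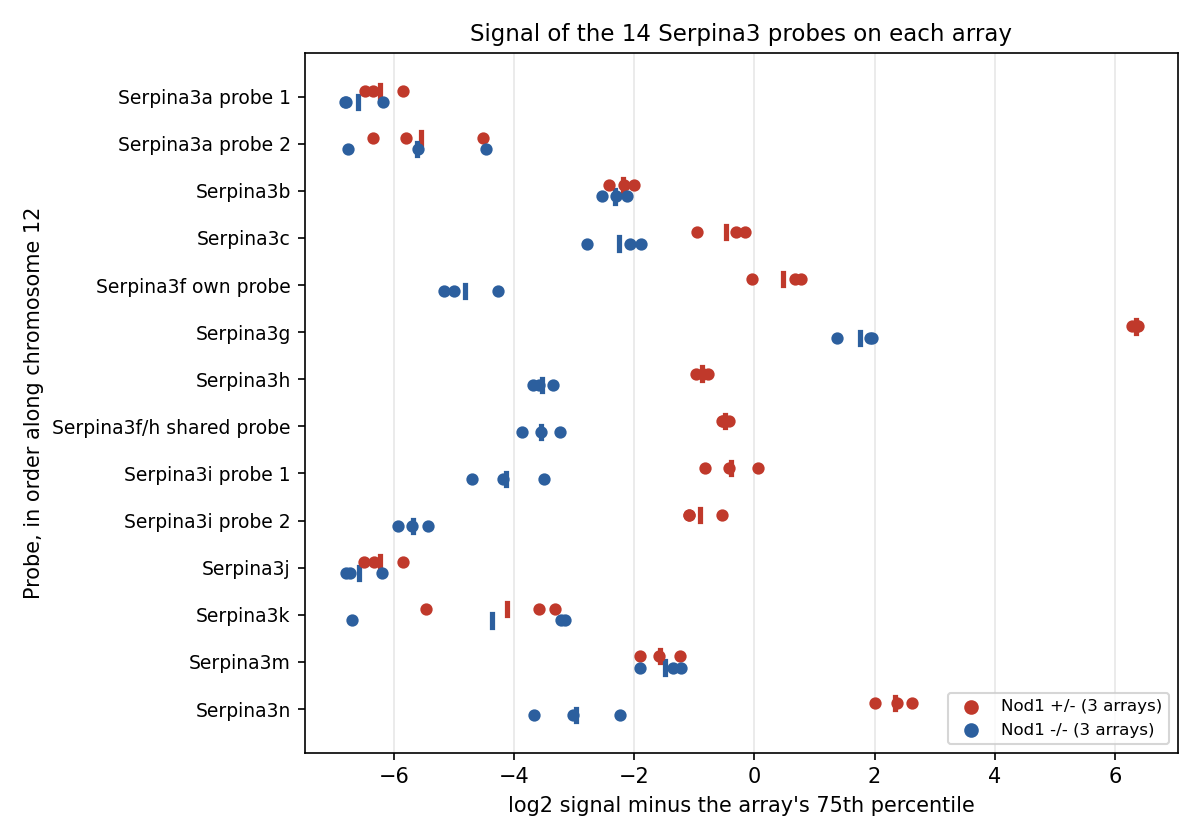
Log2 signal minus the array's 75th percentile (x axis) for each of the 14 Serpina3 probes in chromosome order (y axis); points are the 3 arrays of each genotype and short bars their means. For 8 probes, from Serpina3c to Serpina3n, all Nod1 +/- points lie above all Nod1 -/- points, and for the other 6 the genotypes overlap.

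Serpina3b, Serpina3k and Serpina3m were measured but did not pass the threshold, and their genotypes overlapped. Serpina3b read 77.8, 97.3 and 93.5 in Nod1 +/- and 79.7, 76.2 and 95.2 in Nod1 -/-. Its difference was 0.12 (SE 0.16, interval -0.27 to 0.52). Its probe shares a run of 14 bases with the Serpina3f/h probe, whose difference was 3.05. Those probes match at 45 of 50 aligned positions (90.0%) with gaps allowed and at 36 of 54 (66.7%) without gaps. Serpina3m read 177, 145 and 100.1 against 105, 190 and 162, a difference of -0.08 (SE 0.24, interval -0.68 to 0.51).

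Serpina3k, the liver inhibitor, was uneven across arrays rather than between genotypes. It read 41.9, 36.5 and 8.50 in Nod1 +/- and 3.79, 49.7 and 44.2 in Nod1 -/-, and was well above background on 2 arrays of each genotype. With a difference of 0.24 (SE 1.09), its interval of -2.39 to 2.87 is too wide to show whether it changed. The Serpina3a probes and the Serpina3j probe never exceeded a signal of 18.3. They were well above background on no array, apart from 1 Serpina3a probe on 1 Nod1 -/- array, and were not tested.

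The arrays kept a partly shared order across the probes that differed. Among the 8, Nod1 -/- replicate 3 was the lowest of its genotype on 8 of 8 probes, while replicate 1 was the highest on 5 and replicate 2 on 3. In Nod1 +/-, replicate 2 was the highest on 5 and replicate 3 the lowest on 5. There replicate 3 was also the highest on 2, replicate 1 the highest on 1 and the lowest on 3. The same order was not counted over all probes, and probes of related genes may share signal.

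The low readings of Serpina3k and Serpina3m fell on the arrays with the least hepatocyte signal, a relation noticed in the values and given without a test. The summed hepatocyte markers were 6.84, 6.39 and 5.22 in Nod1 +/- and 4.39, 7.58 and 6.495 in Nod1 -/-. Serpina3k was well above background on the 4 arrays with the larger sums and not on Nod1 -/- replicate 1 and Nod1 +/- replicate 3, so on those it has only an upper bound. By level of Serpina3m, relative to the 75th percentile, the 6 arrays stood in the same order as by the marker sum. Serpina3b had its lowest level on Nod1 -/- replicate 2, where the sum was highest, and its highest on Nod1 +/- replicate 3. The part of liver RNA in these levels was not tested.

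**Figure D2:**
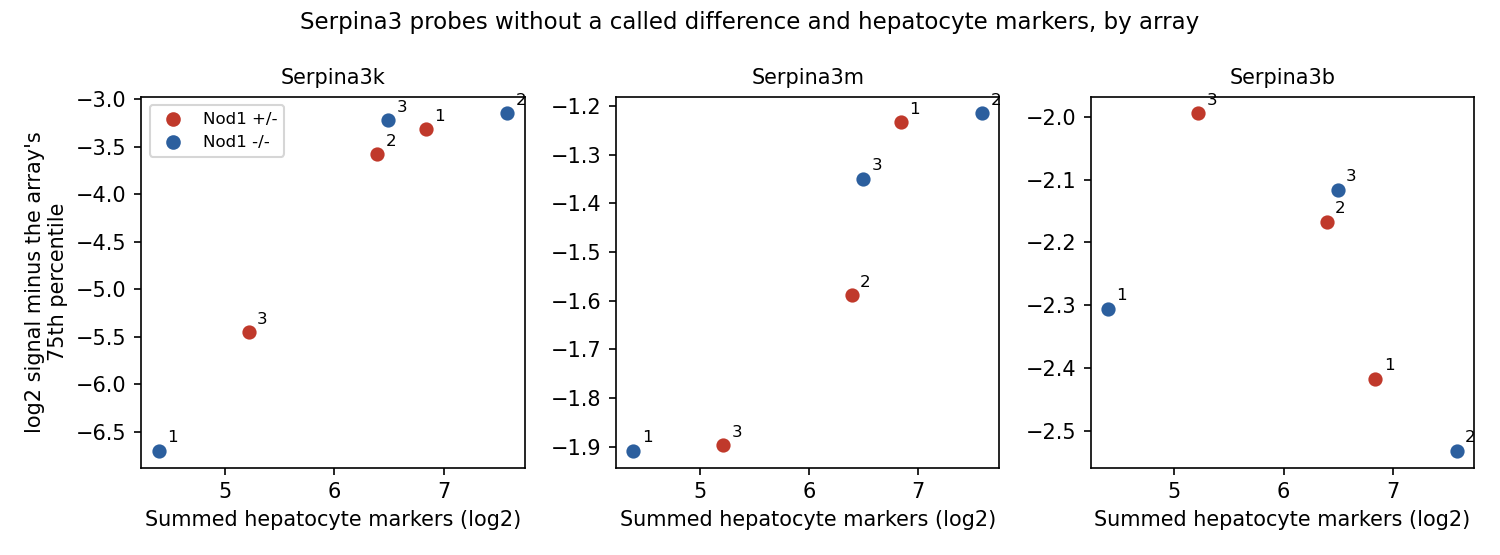
Log2 signal minus the array's 75th percentile of Serpina3k, Serpina3m and Serpina3b (y axes) against the log2 of the summed signal of 10 hepatocyte markers (x axes); each point is an array, numbered by replicate. Serpina3k and Serpina3m are lowest on Nod1 -/- replicate 1 and Nod1 +/- replicate 3, the arrays with the smallest marker sums (4.39 and 5.22), while Serpina3b is lowest on Nod1 -/- replicate 2, the array with the largest sum (7.58).

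The Serpina1 genes next to the cluster, which encode the alpha-1-antitrypsins of liver, showed the same unevenness. Serpina1a read 8501, 7462 and 2947 in Nod1 +/- and 2067, 15860 and 7246 in Nod1 -/-, and is itself in the hepatocyte list. Its difference was -0.09 (limma adjusted p = 0.945), and that of Serpina1c, also in the list, was -0.09 (limma adjusted p = 0.944). The signs of both turn under other scalings or with single arrays omitted. Their closely related probes cannot be taken as separate measurements.

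Within 1 Mb on either side of the cluster, 26 other genes were measured. Of these, 0 were higher and 4 lower in Nod1 +/- (limma, adjusted p under 0.05), where over all 21478 genes 6.97% were higher and 9.91% lower. With so few genes the counts show nothing particular to the region. The median difference was -0.09. At an unadjusted p under 0.05, 3 were higher and 5 lower, and alternative fits called up to 2 higher. With any single array omitted, 1 or 2 were lower. An unnamed transcript probed between Serpina3f and Serpina3g differed by only 0.03 (SE 0.23, limma adjusted p = 0.935). The 4 lower genes lay outside the cluster. Ppp4r4, a regulator of a protein phosphatase, differed by -1.39 (limma adjusted p = 0.00895), with 1 Nod1 +/- array well above background. Clmn, which encodes calmin, differed by -0.65 (limma adjusted p = 0.0415). Prima1, the membrane anchor of acetylcholinesterase, was at least 2.70-fold lower (limma adjusted p = 0.0445) and Gm10000 at least 1.34-fold lower (limma adjusted p = 0.0482), neither being well above background in Nod1 +/-. Ppp4r4 kept its call in 16 of the 18 alternative fits that tested it, and the other 3 lost it in 9 or more.

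**Figure D3:**
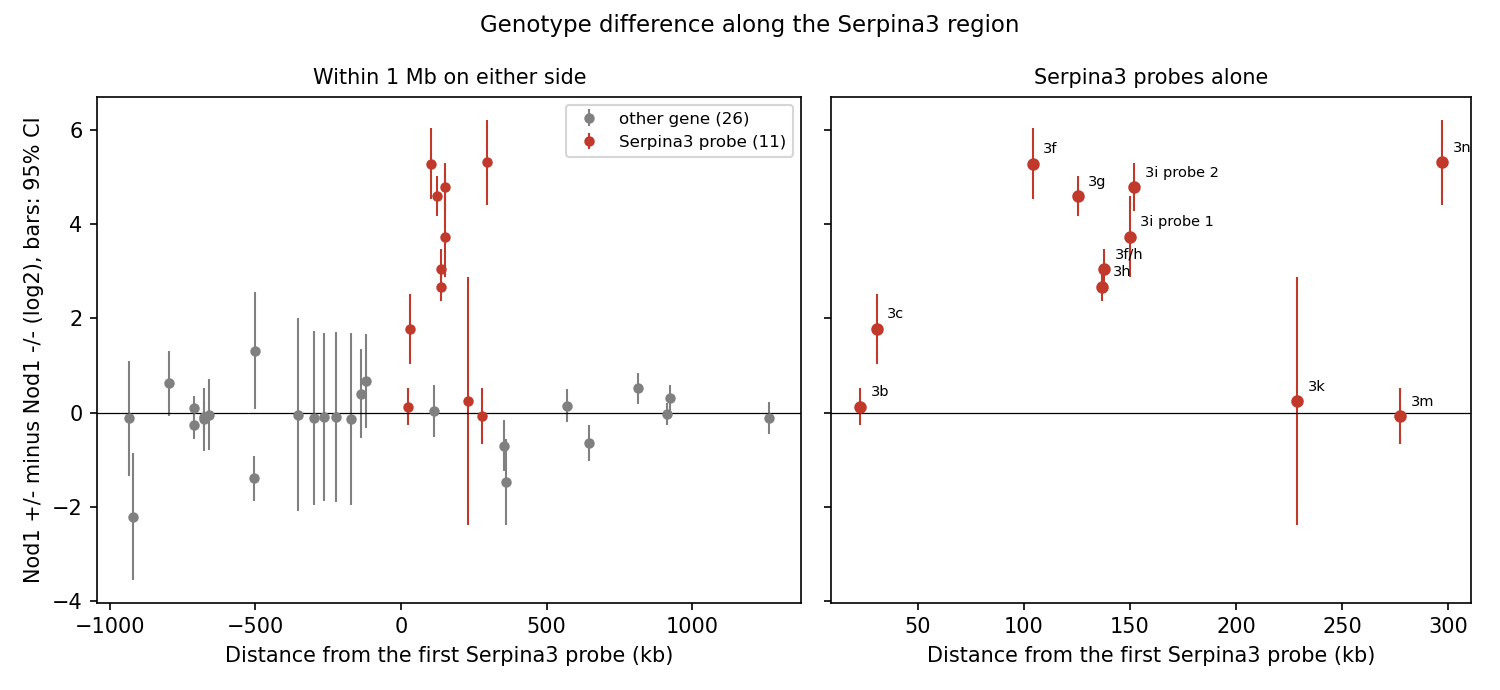
Difference between genotypes (Nod1 +/- minus Nod1 -/-, log2, y axis) with its 95% confidence interval against distance from the first Serpina3 probe in kb (x axis), for the 11 measured Serpina3 probes and 26 other genes (left) and the Serpina3 probes alone (right). The Serpina3 probes from Serpina3c to Serpina3i all passed the threshold. Serpina3b lies before them, and Serpina3k, with a wide interval, and Serpina3m lie after them, none of these past the threshold. Serpina3n, at the far end, stands at 5.31.

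Promoters of the family were then read from RefSeq (GRCm38.p6), a different build from that of the probes. The table holds 9 promoters of 8 Serpina3 genes, each from 250 bases before to 50 bases after the start of the transcript, and none for Serpina3h, Serpina3k or Serpina3m. The 250 bases before the start are printed for 5 genes that were higher in Nod1 +/-. Capitals mark a STAT motif, an NF-kB motif or a word of 12 bases that the family shares.
Serpina3n promoter, chr12:104406458-104406707, plus strand: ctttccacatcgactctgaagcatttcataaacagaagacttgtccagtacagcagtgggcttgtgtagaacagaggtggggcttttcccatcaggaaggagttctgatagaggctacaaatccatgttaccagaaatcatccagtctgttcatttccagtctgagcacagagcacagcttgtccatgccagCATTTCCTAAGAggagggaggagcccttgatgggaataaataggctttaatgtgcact
Serpina3c promoter, chr12:104153873-104154122, minus strand: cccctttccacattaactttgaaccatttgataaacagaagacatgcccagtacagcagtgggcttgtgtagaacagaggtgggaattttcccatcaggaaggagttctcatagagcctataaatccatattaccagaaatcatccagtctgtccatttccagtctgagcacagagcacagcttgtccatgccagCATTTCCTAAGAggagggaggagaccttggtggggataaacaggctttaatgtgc
Serpina3g promoter, chr12:104235897-104236146, plus strand: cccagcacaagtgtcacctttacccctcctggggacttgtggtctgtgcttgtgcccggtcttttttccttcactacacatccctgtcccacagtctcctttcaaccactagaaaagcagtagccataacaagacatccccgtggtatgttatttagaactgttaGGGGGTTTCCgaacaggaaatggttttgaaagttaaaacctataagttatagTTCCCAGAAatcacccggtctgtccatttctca
Serpina3i promoter, chr12:104262872-104263121, plus strand: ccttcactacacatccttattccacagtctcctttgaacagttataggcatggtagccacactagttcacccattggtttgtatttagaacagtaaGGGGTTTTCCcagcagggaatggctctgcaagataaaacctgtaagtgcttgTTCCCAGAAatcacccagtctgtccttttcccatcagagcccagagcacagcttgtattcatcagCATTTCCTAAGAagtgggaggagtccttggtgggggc
Serpina3f promoter, chr12:104214294-104214543, plus strand: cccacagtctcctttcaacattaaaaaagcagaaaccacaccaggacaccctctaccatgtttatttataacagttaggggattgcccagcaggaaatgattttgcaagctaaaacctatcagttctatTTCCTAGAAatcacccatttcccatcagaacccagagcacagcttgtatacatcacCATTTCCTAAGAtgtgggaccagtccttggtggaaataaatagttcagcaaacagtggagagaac

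The motif TTCNNNGAA, to which STAT factors bind, was found in the promoters of Serpina3f, Serpina3g and Serpina3i, and in 8.3% of all 32851 promoters of the same length (both strands searched). It starts 121, 33 and 102 bases before the start of the transcript. The NF-kB motif was found in Serpina3g and Serpina3i, 85 and 154 bases before the start, and in 4.5% of all promoters. The C/EBP motif TTGCNNAA was found in Serpina3b and Serpina3f and in 10.8% of all. None of the 3 motifs overlaps another in the stretches printed. Serpina3c and Serpina3n hold none of the 3 in this window.

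A word of 12 bases, CATTTCCTAAGA, was found in 6 of the 8 genes: Serpina3b, Serpina3c, Serpina3f, Serpina3g, Serpina3i and Serpina3n. It was picked because the family shares it. Of all 32851 promoters, 12 hold it (0.037%), from 11 genes, the others being Zfp57, Vmn1r58, Vmn1r63, Gm31872 and 1700123O21Rik. In Serpina3g it lies 32 bases past the start and so outside the printed stretch. Serpina3b, which did not pass the threshold, holds it too. The family's promoters resemble each other to different degrees. The closest, those of Serpina3c and Serpina3n, are 89.9% identical over 306 aligned positions, followed by those of Serpina3b and Serpina3n at 68.6%. The promoter of Serpina3g was at most 49.9% identical to another (Serpina3i), that of Serpina3j at most 48.9% and that of Serpina3a at most 47.3%. The lowest value was 43.4%, between Serpina3f and Serpina3g. These matches describe letters and not binding, and no measurement of binding was made.

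The proteases and inhibitors around the family were read from lists of genes, each gene represented by its brightest measured probe. Over all 21478 genes, 16.9% passed the threshold, 6.97% higher and 9.91% lower in Nod1 +/-, with a median difference of -0.10. Among other clade A serpins, 0 of 8 measured genes passed in limma (1 higher and 0 lower at an unadjusted p under 0.05; median -0.06). The standard errors of these 8 ran from 0.38 to 0.85, so the count does not show that they were unchanged. They include the Serpina1 genes, whose probes are not separate measurements. Of 18 serpins of other clades, 3 were higher and 1 lower (median -0.10). Serpinb9, the intracellular inhibitor of granzyme B, was 2.83-fold higher (limma adjusted p = 0.00134). Serpinb2, an inhibitor of plasminogen activators, had no Nod1 -/- reading well above background and was at least 4.86-fold higher (limma adjusted p = 0.00293). Serpini1, neuroserpin, was lower, with a difference of -1.07 (limma adjusted p = 0.00808), a call lost with the slide row as block and without both first replicates (limma adjusted p up to 0.098).

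Proteases, the class of enzyme that serpins inhibit, were counted in the same way. Of 12 measured serine proteases of neutrophils, mast cells and cytotoxic lymphocytes, 0 passed in either direction in limma (0 also at an unadjusted p under 0.05; median -0.14). The 2 brightest were both of mast cells: Mcpt4 differed by -0.16 (limma adjusted p = 0.753) and Tpsb2 by 0.08 (limma adjusted p = 0.807), and the sign of each turned in some alternatives. The neutrophil elastase gene Elane, which is also in the neutrophil marker list, differed by 0.22 (SE 0.22, limma adjusted p = 0.512). Of 10 lysosomal cysteine cathepsins, 1 was lower and 0 higher in limma (4 lower and 0 higher at an unadjusted p under 0.05; median -0.34). The lower gene was Ctsh, an aminopeptidase, with a difference of -0.66 (limma adjusted p = 0.0388), a call lost in 9 alternatives.

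Of 32 protease inhibitors outside the serpin family, 9 were higher and 3 lower (median 0.17), the lower count being near the share over all genes. Keeping dim probes gave 5 higher and 0 lower, and 5 were higher without Nod1 -/- replicate 1 or replicate 2. Timp1, an inhibitor of matrix metalloproteinases, was higher by 1.92 (limma adjusted p = 0.000894). The stefins Stfa2, Stfa2l1 and Stfa1, inhibitors of cysteine proteases, were higher by 3.34, 3.62 and 2.97 (limma adjusted p = 0.000697, 0.000914 and 0.00138). The stefins are near-identical copies, so their probes may share signal. The neutrophil marker sum given above, which follows mainly S100a9, moved in the same direction. The part of neutrophil RNA in these differences and in those of Serpina3 was not tested.

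Genes of interleukin-6 and STAT3 signalling and of the acute phase were higher in 20 of 36 and lower in 1 (median 1.01). Saa3, an acute phase serum amyloid, was higher by 8.51 (SE 0.58, limma adjusted p = 0.00134), the oncostatin M receptor Osmr by 1.44 (limma adjusted p = 0.00134), the siderophore-binding Lcn2 by 3.46 (limma adjusted p = 0.00151) and the feedback inhibitor Socs3 by 2.19 (limma adjusted p = 0.00218). The lower gene, named after its value was seen, was the glucocorticoid receptor Nr3c1 at -0.72 (limma adjusted p = 0.0122), a call lost in 4 alternatives, among them the omission of Nod1 -/- replicate 2. Genes known to rise with Serpina3n in reactive astrocytes were higher in 15 of 21 and lower in 1 (median 1.24). They include Timp1 and Osmr, already given, the chemokine Cxcl10 at 5.70 (limma adjusted p = 0.00134) and the interferon-inducible Gbp2 at 3.71 (limma adjusted p = 0.00134). Fbln5, of elastic fibres and named after its value was seen, was the lower gene at -0.61 (limma adjusted p = 0.0135), a call lost in 5 alternatives, among them median scaling and the omission of Nod1 -/- replicate 1. Gfap is in this list too, and the part that the glial and neutrophil markers given above have in these counts was not tested. These lists were drawn up with earlier results of the arrays known and overlap each other.

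**Figure D4:**
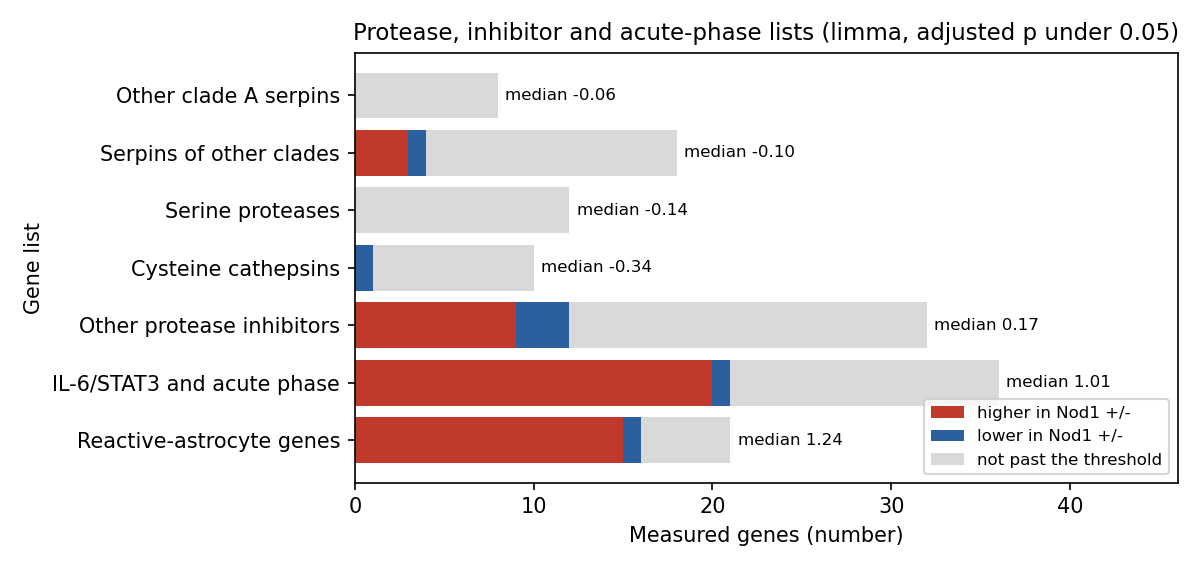
Number of measured genes (x axis) in each list (y axis) that were higher in Nod1 +/-, lower in Nod1 +/- or not past the threshold (limma, adjusted p under 0.05), with the list's median log2 difference at the end of each bar. The acute phase list (20 of 36 higher) and the reactive-astrocyte list (15 of 21 higher) hold the most higher genes, and the protease lists hold 0.

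Finally, the profile of Serpina3n over the 6 arrays was compared with those of 20717 other genes after centring each on its mean, with the root mean square distance in log2 units as the measure of likeness. The closest were Gpr84, a receptor of myeloid cells, at a distance of 0.169, the metallothionein Mt2 at 0.202, 2010005H15Rik at 0.381, the chemokine Ccl2 at 0.400 and the adhesion molecule Selp, P-selectin, at 0.493. Within the family, Serpina3f (own probe, 0.478), Serpina3i (0.479, by the probe not well above background in Nod1 -/-) and Serpina3g (0.487) were the closest, and Serpina3c (1.78) was the farthest of those past the threshold. Gpr84 differed between genotypes by 5.55 (SE 0.30) and Mt2 by 5.28 (SE 0.23), which describes likeness in size and in array order and no more.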

How the data were processed

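Scanner files of 6 Agilent arrays were used. Per the file headers, intensity is the processed signal that Agilent Feature Extraction 10.7.1.1 gives after background subtraction, while version 9.5.1.1 stands in the submitters' processing notes. The deposited value table (the authors' normalized signal, all columns with a median of 33.4) served as an alternative. Spots of a probe were averaged without control and outlier spots, log2 values were taken minus each array's 75th percentile, and probes well above background on at least 3 arrays were kept. Genotypes were compared with limma 3.58.1 (R 4.3.3), Benjamini-Hochberg adjustment over all 30166 kept probes and a threshold of 0.05, and the code was tested on simulated data. Probe alignments used Biopython 1.88. Of the non-control probes, 134 had no usable spot.

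Named are all Serpina3 probes, up to 4 called genes of smallest p per list (otherwise the 2 brightest), called genes within 1 Mb and the 5 closest profiles; 1 gene that the rule names is not reported here. Members and lists were chosen with earlier results of these data known. Alternatives covered background, scaling, filter, gene summary, prior, weights, blocks, the deposited table and omitted arrays.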

Additional observations from a re-analysis of the deposited data

How the results depend on the processing

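The 8 Serpina3 probes past the threshold were higher in Nod1 +/- in all 147 values that the alternatives gave for them, of which 17 moved the difference by more than the spread between replicates. The alternatives reuse the arrays from which the family was picked, so this likeness in sign is no separate support. The mean of probes also gave both probes of a gene the same value. The differences ranged from 1.78 to 5.31 as reported and from 1.23 to 4.50 with normexp background correction. With a block for slide row they ranged from 2.31 to 6.00. Slide row 2 held every Nod1 +/- array and Nod1 -/- replicate 3, and row 1 held Nod1 -/- replicates 1 and 2. Slide row is thus largely confounded with genotype. Under that block the genotype difference rests on Nod1 -/- replicate 3 alone for its genotype, so the larger values are no separate support. The count past the threshold was 7 of 14 without the filter on dim probes, where 2.4% of all probes passed in either direction. With single arrays omitted it was 7 or 8 of 11, beside 5.11% to 13.9% of all probes. Serpina3c was the probe lost in these fits. It was 5 of 7 when signal well above background was required on 6 arrays, beside 20.6% of all. Without both first replicates, an alternative chosen after seeing the data, it was 7 of 11, beside 1.92% of all.

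As reported, 2057 probes were higher and 2755 lower, with 42 list genes higher and 7 lower and 0 nearby genes higher and 4 lower. Scaling to the median moved the median difference of all probes from -0.09 to 0.02 and gave 2072 higher and 1113 lower. Keeping dim probes gave 747 and 586 (list genes lower 1, nearby lower 1), the slide row block 689 and 454 (1 and 2), and both first replicates omitted 396 and 182 (list genes 23 higher and 0 lower, nearby 0 lower). Array weights gave 4605 lower (list genes lower 13, nearby higher 2). The number of list genes lower was 13 with normexp, 14 with a trended robust prior and 11 with signal required on 6 arrays. Nearby, 2 were lower with normexp, quantile scaling or the deposited table, 1 was lower with signal on 6 arrays, and 1 was higher there, in both gene-level fits and with the trended prior. With single arrays omitted, 828 to 1618 probes were higher, 712 to 2565 lower, 31 to 38 list genes higher, 3 to 9 lower, and 1 to 2 nearby genes lower. The causes were not tested.

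Signs turned only for differences that had not passed the threshold. Among Serpina3 probes, Serpina3b reached -0.08 with the slide row block, and over the alternatives Serpina3k ran from -1.33 to 1.11 and Serpina3m from -0.46 to 0.12. Serpina1a and Serpina1c came to 0.0189 and 0.0169 with median scaling, 0.37 and 0.39 with array weights and, with single arrays omitted, to between -0.84 and 0.55 and between -0.85 and 0.53. Tpsb2 came to -0.0155 with the mean of its probes and to between -0.14 and 0.22 with single arrays omitted. Mcpt4 came to 0.50 with the slide row block, 0.079 without both first replicates and between -0.50 and 0.0901 with single arrays omitted.

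The replicate numbers were not taken to pair the samples. After each genotype's mean was removed from every probe, same-numbered arrays correlated at 0.09, 0.285 and 0.11. Arrays with different numbers correlated at -0.31 to 0.13. Nod1 +/- replicate 3 correlated better with Nod1 -/- replicate 1 (0.13) than with its own number. These values do not settle whether the numbers mark pairs. With the number as a block, 1846 probes were higher and 2667 lower, and 8 of 11 Serpina3 probes passed, beside 15% of all probes. With 3 arrays per genotype and several Nod1 -/- signals near background, folds of the dim probes are the least certain.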
